A study of Mus musculus with 16 samples.

Results

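The 5 genes described here belong to the lumen and junction of the sarcoplasmic reticulum, the calcium store of muscle cells, and were measured in left ventricles. They are the calsequestrins Casq1 and Casq2, triadin (Trdn), Asph, which encodes junctin, and the histidine-rich calcium-binding protein Hrc. They are 5 of the 56953 genes in the count table. They were chosen by name, with the results of an earlier analysis of the same libraries known, in which Casq1 stood among the genes that rose most in mutant hearts. The levels of Casq1 in the groups are therefore given as a description, without a test.

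The libraries came from 16 male and female Bl6J mice, 1 library per mouse and 4 mice per group, with the sex of single mice not given. The splicing factor RBM20, which acts in heart muscle, was wild type (WT) or carried the missense mutation P635L on both alleles. Every mouse, WT included, received 1e12 viral genomes of AAV9 by tail vein at 4 weeks of age. The vector held a cDNA of Tnpo3, a receptor for import into the nucleus, or the control construct (Ctr) pCAG-iCre-T2A-eGFP, which encodes Cre recombinase and a green fluorescent protein under a ubiquitous promoter. Ventricles were collected at 16 weeks of age, 12 weeks after injection. The 4 groups are named by genotype and construct (WT Ctr, WT Tnpo3; P635L Ctr, P635L Tnpo3). No group went without virus, and the promoter that drives Tnpo3 is not given in the sources used here. RNA came from left ventricular tissue, so fewer cells of a type and less RNA per cell cannot be told apart.

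Calsequestrins are high-capacity, low-affinity calcium buffers that polymerise in the terminal cisternae. Casq2 is the cardiac and Casq1 the fast skeletal muscle form. Triadin and junctin are single-pass membrane proteins whose lumenal tails hold calsequestrin at the ryanodine receptor, the calcium release channel. Hrc is a lumenal protein that binds triadin and the calcium pump SERCA. Loss of CASQ2 or of triadin causes stress-induced ventricular arrhythmia in people, and the triadin transcript is a known splicing target of RBM20.

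Exons of Trdn and Asph carried the splicing changes described below, and 4 of them are shown here because their inclusion separated the mutant groups. Sequences are from the GENCODE M21 transcripts (GRCm38), 5′ to 3′ on the gene's strand. The letters TCTT, the DNA form of the RBM20 recognition motif, are in capitals where they occur, and only the transcript strand was searched.
Trdn exon 16 of transcript Trdn-201, 18 bases: aacaacccaagggaaaaa
Trdn exon 20 of transcript Trdn-201, 48 bases: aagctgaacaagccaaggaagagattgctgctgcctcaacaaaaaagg
Asph exon 4 of transcript Asph-207, 42 bases: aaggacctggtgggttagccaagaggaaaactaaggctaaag
Asph exon 5 of transcript Asph-202, 75 bases: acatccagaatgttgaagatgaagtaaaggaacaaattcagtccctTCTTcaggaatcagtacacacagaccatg

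All 4 are wholly coding and a multiple of 3 bases long, so skipping one keeps the reading frame. In GRCm38 the 18-base exon lies at chr10:33333232-33333249 and the 48-base exon at chr10:33343076-33343123, both on the + strand. The Asph exons lie on the - strand, at chr4:9624360-9624401 for the 42-base and chr4:9607797-9607871 for the 75-base exon. TCTT occurred once, in the 75-base Asph exon. It occurs in 24.7% of the 2080 annotated exons of that length, in 15.8% of exons of 42 bases, in 19.0% of exons of 48 bases and in 7.83% of exons of 18 bases. The search covered the exons and not the introns beside them.

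Library totals ran from 28493249 to 85922669 counts. The gene ENSMUSG00000119584 held 20% to 22.7% of the counts of 3 WT libraries and 0.703% to 5.3% of the others. Xist was more abundant than Y-linked genes in 3 WT libraries and in 0 of 8 P635L libraries. Tnpo3 stood at 44.8 ± 3.29 normalised counts (CPM, counts-per-million of the library total after TMM scaling) in WT Ctr and at 44.5 ± 2.72 in P635L Ctr. It reached 320.5 ± 126 in WT Tnpo3 and 464 ± 214 in P635L Tnpo3 (SD, n = 4 each). The ventricular markers Myh6, Myl2, Myl3, Tnnt2, Tnni3, Actc1, Ryr2 and Pln summed to between 54400 and 94000 CPM in every library. Of 6 atrial markers, Myl7, Bmp10 and Sln were each below 0.5 CPM on average in every group and Myl4 was at 3.02 to 6.82 CPM. The others were higher in P635L Ctr than in WT Ctr, Nppa at 7540 against 264 CPM and Dkk3 at 17.2 against 3.55 CPM.

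In WT hearts Casq1 was the least abundant of the 5 transcripts. Per kilobase of exon, Hrc stood highest in WT Ctr at 559 ± 73.4 CPM per kb, followed by Casq2 at 249 ± 47.8, Trdn at 67.8 ± 6.2, Asph at 12.2 ± 1.81 and Casq1 at 5.22 ± 0.783 (SD, n = 4). This order held in all 8 WT libraries. In P635L Ctr, Casq1 stood above Trdn and Asph in 4 of 4 libraries, at 165 ± 18.8 CPM per kb against 43.2 ± 3.63 for Trdn, and Casq2 stood above Hrc in 3 of 4. In P635L Tnpo3 the order was Hrc, Casq2, Trdn, Casq1 and Asph in 4 of 4 libraries. The lengths are those of the count table and join all exons of a gene, so genes with many isoforms such as Trdn (9352 bases) and Asph (16102 bases) are placed lower than their transcripts would be.

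**Figure D1:**
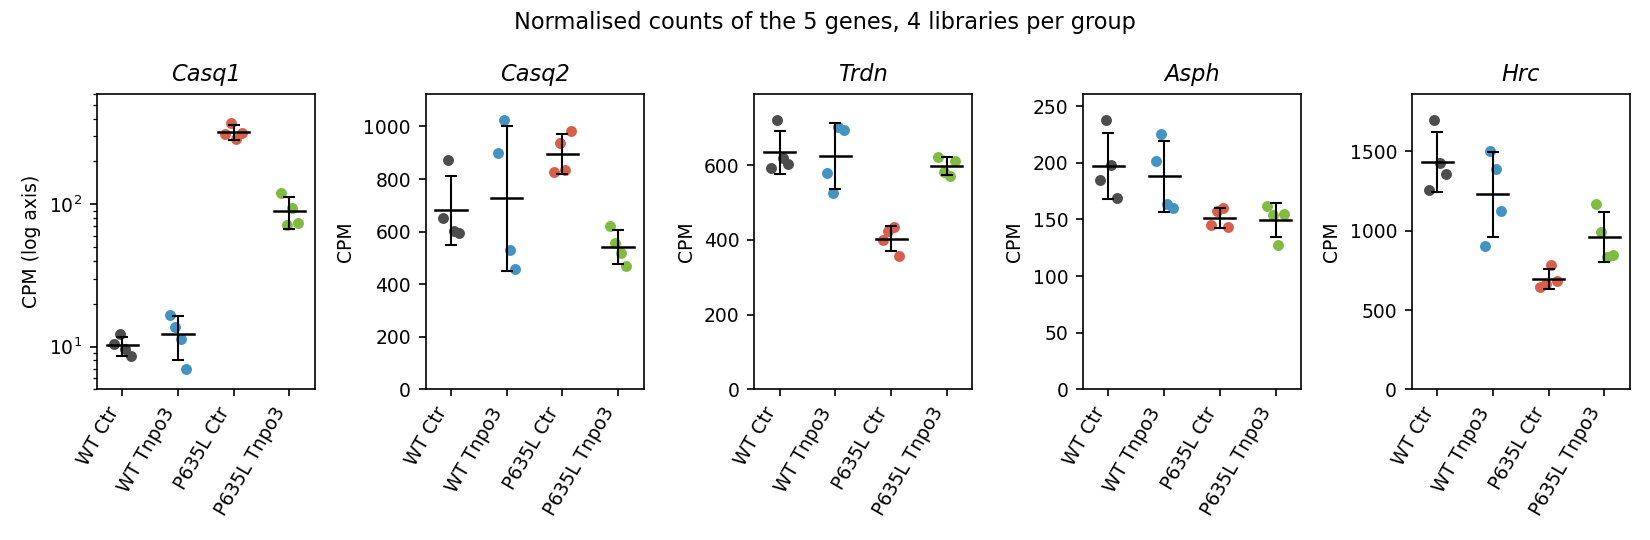
Normalised counts (CPM) of the 5 genes by group; each point is 1 library, lines are means and bars are SD over 4 libraries, and the Casq1 axis is logarithmic. Casq1 lies at 285 to 372.5 CPM in P635L Ctr and at 8.58 to 12.2 CPM in WT Ctr, while Hrc and Trdn are lowest in P635L Ctr.

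Casq1 (ENSMUSG00000007122, chr1:172037461-172047435 on the - strand, GRCm39) was low in WT hearts and high in mutant hearts. The 4 WT Ctr libraries held 10.4, 12.2, 9.54 and 8.58 CPM, and the 4 WT Tnpo3 libraries 16.8, 13.8, 11.3 and 6.94 CPM. The P635L Ctr libraries held 312, 372.5, 285 and 316 CPM. The P635L Tnpo3 libraries held 120, 71.5, 94.8 and 73.8 CPM. All mutant libraries lay above all WT libraries, and the P635L Tnpo3 libraries lay below all P635L Ctr libraries. The reads behind these values numbered 210 to 553 per WT library and 3637 to 35291 per mutant library.

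On the log2 scale Casq1 was 4.98 higher in P635L Ctr than in WT Ctr (SE 0.25). The difference was -1.84 between P635L Tnpo3 and P635L Ctr (SE 0.22) and 3.15 between P635L Tnpo3 and WT Ctr (SE 0.23). Its lowest level in P635L Tnpo3 was 71.5 CPM and its highest in WT Ctr was 12.2 CPM. Between the WT groups the difference was 0.27 (SE 0.22), and their libraries overlapped.

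The ratio of Casq1 to Casq2 needs no scaling between libraries, since both counts come from the same library. Per length it was 0.0224, 0.0195, 0.0222 and 0.0202 in the WT Ctr libraries and 0.0262, 0.0189, 0.0299 and 0.0213 in WT Tnpo3. It was 0.529, 0.557, 0.480 and 0.451 in P635L Ctr, and 0.270, 0.181, 0.257 and 0.221 in P635L Tnpo3. The skeletal form thus made up 2.06% ± 0.137 of calsequestrin transcripts in WT Ctr, 33.5% ± 2.11 in P635L Ctr and 18.8% ± 2.68 in P635L Tnpo3 (SD, n = 4 each). Casq2 remained the more abundant form in all 16 libraries.

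The geometric mean of the ratio was 23.9-fold higher in P635L Ctr than in WT Ctr and 10.9-fold higher in P635L Tnpo3 than in WT Ctr. In P635L Tnpo3 it was 0.456 of its value in P635L Ctr, with no overlap between the groups. Between the WT groups the fold was 1.13, and their libraries overlapped.

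**Figure D2:**
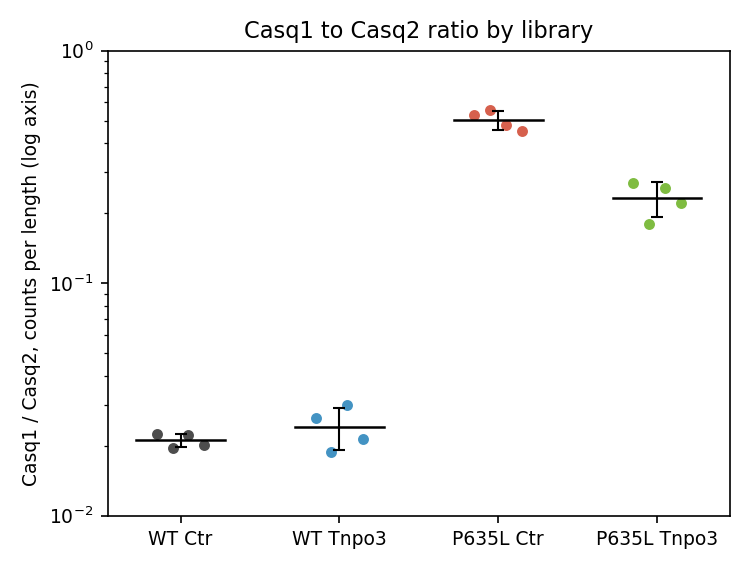
Ratio of Casq1 to Casq2 counts per exon length (logarithmic axis) by group; each point is 1 library, lines are means and bars are SD over 4 libraries. The WT libraries lie between 0.0189 and 0.0299, P635L Ctr between 0.451 and 0.557, and P635L Tnpo3 between 0.181 and 0.270.

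Casq2 (ENSMUSG00000027861, chr3:101993731-102053830 on the + strand, GRCm39), the cardiac buffer, moved less. The WT Ctr libraries held 653, 873, 602 and 595.5 CPM and the WT Tnpo3 libraries 898, 1023, 530.1 and 456 CPM. P635L Ctr held 827, 938.5, 833 and 983 CPM, and P635L Tnpo3 held 621.5, 555, 518 and 469 CPM. P635L Ctr overlapped WT Ctr, while every P635L Tnpo3 library lay below every P635L Ctr library.

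The difference between P635L Ctr and WT Ctr was 0.39 on the log2 scale (SE 0.21, edgeR adjusted p = 0.225). The difference between P635L Tnpo3 and P635L Ctr was -0.73 (SE 0.21, edgeR adjusted p = 0.0587) and did not pass the threshold of 0.05. It passed in 9 of 28 alternatives (adjusted p from 0.000639 to 0.167), among them DESeq2 at 0.0134. The authors' deposited table, made with DESeq2, lists an adjusted p of 0.0367 for Casq2 in P635L Ctr against WT Ctr, at a log2 fold change of 0.41.

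The 250 bases before the annotated starts of both calsequestrin genes are shown because the paralogs differed so much in response. They are from RefSeq (GRCm38.p6), 5′ to 3′ on the gene's strand. Capitals mark CAGCTG, an E-box of the kind bound by muscle basic helix-loop-helix factors, in Casq1, and a match to the MEF2 consensus in Casq2. Both strands were searched, and no 2 matches overlapped.
Casq1, chr1:172219896-172220145, - strand: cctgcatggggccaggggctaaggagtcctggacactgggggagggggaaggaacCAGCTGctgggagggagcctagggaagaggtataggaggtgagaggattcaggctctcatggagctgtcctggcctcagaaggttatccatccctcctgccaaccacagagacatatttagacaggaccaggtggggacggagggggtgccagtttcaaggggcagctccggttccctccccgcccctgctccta
Casq2, chr3:102086165-102086414, + strand: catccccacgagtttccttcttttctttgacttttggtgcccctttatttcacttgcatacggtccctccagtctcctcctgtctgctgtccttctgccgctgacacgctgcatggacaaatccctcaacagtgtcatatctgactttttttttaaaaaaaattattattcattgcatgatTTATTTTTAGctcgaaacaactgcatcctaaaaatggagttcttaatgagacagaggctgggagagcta

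CAGCTG starts at -195 from the Casq1 start and the MEF2 match at -69 from the Casq2 start. The Hrc promoter also holds CAGCTG once, at -22. Of 32851 promoter windows of that length, 13% hold CAGCTG and 2.92% hold the MEF2 match. These matches are descriptions of the letters, and no binding was measured. Trdn and Asph have no entry in that table.

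Trdn (ENSMUSG00000019787, chr10:32956550-33352705 on the + strand, GRCm39), the anchor of calsequestrin, fell in P635L Ctr and stood at the WT level in P635L Tnpo3. The WT Ctr libraries held 594, 720, 620 and 604 CPM, and the P635L Ctr libraries 399, 423.5, 434 and 358 CPM. The P635L Tnpo3 libraries held 622, 581, 572 and 612 CPM. WT Tnpo3 ranged from 525 to 702 CPM. All 4 P635L Ctr libraries lay below the 12 others.

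The log2 fold change of Trdn was -0.65 in P635L Ctr against WT Ctr (SE 0.12, edgeR adjusted p = 0.000777). It was 0.56 in P635L Tnpo3 against P635L Ctr (SE 0.11, edgeR adjusted p = 0.0101), and this call was lost without P635L Ctr replicate 4 (0.51, edgeR adjusted p = 0.0517). P635L Tnpo3 and WT Ctr differed by -0.09 (95% interval -0.34 to 0.16, edgeR adjusted p = 0.729). The virus-by-genotype interaction for Trdn was 0.59 (SE 0.16, edgeR adjusted p = 0.128), so a difference in the effect of the virus between genotypes did not pass the threshold. It passed in 1 of 27 alternatives, DESeq2 (0.57, adjusted p = 0.0192).

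Hrc (ENSMUSG00000038239, chr7:44984714-44988398 on the + strand, GRCm39) fell in P635L Ctr to 0.484 of its WT Ctr level. The WT Ctr libraries held 1254, 1696, 1426 and 1360 CPM, and the P635L Ctr libraries 647, 664, 787 and 680.3 CPM. The P635L Tnpo3 libraries held 1168, 991, 836 and 848 CPM. They lay above all P635L Ctr libraries and below all WT Ctr libraries. WT Tnpo3 ranged from 904 to 1503 CPM.

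The log2 fold change of Hrc was -1.05 in P635L Ctr against WT Ctr (SE 0.16, edgeR adjusted p = 0.000187). In P635L Tnpo3 against P635L Ctr it was 0.47 (SE 0.16, edgeR adjusted p = 0.107), which did not pass. It passed in 2 of 28 alternatives (adjusted p from 0.0142 to 0.298): DESeq2 at 0.0381, and the fit of only the groups compared. P635L Tnpo3 against WT Ctr gave -0.58 (SE 0.16, edgeR adjusted p = 0.053). That difference passed in 5 of 28 alternatives (adjusted p from 0.0124 to 0.245). They were DESeq2 and the fits without WT Ctr replicate 1, WT Tnpo3 replicate 1, WT Tnpo3 replicate 4 or P635L Tnpo3 replicate 1. The authors' deposited table gives an adjusted p of 0.0077 for that difference.

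Asph (ENSMUSG00000028207, chr4:9448069-9669344 on the - strand, GRCm39) encodes junctin, a hydroxylase of the endoplasmic reticulum and shorter lumenal forms. The WT Ctr libraries held 185, 237, 198 and 169 CPM, the P635L Ctr libraries 145, 157, 160.1 and 143 CPM, and the P635L Tnpo3 libraries 162, 154, 127 and 154.5 CPM. The 8 mutant libraries lay below all 4 WT Ctr libraries. WT Tnpo3 ranged from 160.4 to 225.7 CPM and overlapped P635L Tnpo3. The difference between P635L Ctr and WT Ctr was -0.38 (SE 0.13, edgeR adjusted p = 0.0583), short of the threshold. It passed in 5 of 28 alternatives (adjusted p from 0.0227 to 0.234), and the authors' deposited table lists 0.0279. Among the 5 was the fit without the libraries with high Xist (-0.41, edgeR adjusted p = 0.0227). The mutant groups differed by -0.02 (95% interval -0.30 to 0.27, edgeR adjusted p = 0.963).

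Among the 5 genes, Casq1, Trdn and Hrc were called in P635L Ctr against WT Ctr, 1 higher and 2 lower, where 14.2% of the 18662 genes tested were called, 7.07% higher and 7.14% lower. In P635L Tnpo3 against P635L Ctr, Trdn was called higher and Casq1 lower, against 3.88% of all genes (1.63% higher and 2.25% lower). Casq1 alone was called in P635L Tnpo3 against WT Ctr (3.07% of all genes), in P635L Tnpo3 against WT Tnpo3 (3.72%) and in the interaction (0.504%). Casq1 counts were part of the choice of genes, so nothing is read from its calls. Leaving Casq1 aside, no member was called in P635L Tnpo3 against WT Ctr, in P635L Tnpo3 against WT Tnpo3 or in the interaction. The contrasts share control libraries.

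In WT hearts the Tnpo3 virus called 0 of the 5 genes, where 0.00536% of all genes were called. By edgeR 0 of the 5 genes had an unadjusted p under 0.05 there, and DESeq2 also called 0. The 95% intervals of the log2 difference ran from -0.36 to 0.55 for Casq2, from -0.27 to 0.23 for Trdn, from -0.35 to 0.21 for Asph and from -0.56 to 0.12 for Hrc.

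Splicing was read from the authors' deposited tables of splicing events, which compare each group with WT Ctr by rMATS. They list 83 events of the 5 genes for P635L Ctr, 107 for P635L Tnpo3 and 94 for WT Tnpo3. Trdn accounts for 61, 82 and 71 of these, Asph for 15, 16 and 15, and Hrc for 7 in each. Casq1 and Casq2 have at most 1 each. Of these, 79, 96 and 87 passed a minimum of 10 junction reads, as the mean over the libraries of each group.

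An event was called at an rMATS false discovery rate (FDR) under 0.05, an inclusion difference of at least 0.1 and that read minimum. There were 5 called events of 79 in P635L Ctr, 4 in Trdn and 1 in Asph, where 2.52% of all events with enough reads were called. P635L Tnpo3 had 1 of 96, in Asph, against 2.12% of all events. WT Tnpo3 had 0 of 87, against 0.941% of all events. In that group 2 Trdn events with enough reads had an FDR under 0.05 with a smaller difference. Called events of 1 gene share junctions and are not independent.

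The 18-base exon 16 of Trdn, at chr10:33209228-33209245 in the files' build GRCm39, was skipped more often in P635L Ctr. Its inclusion was 94.4%, 94.2%, 95.7% and 96.0% in the WT Ctr libraries, by listed position, since the tables do not name the libraries. It was 84.5%, 83.1%, 87.6% and 81.4% in P635L Ctr and 94.8%, 92.8%, 93.7% and 90.9% in P635L Tnpo3. P635L Ctr stood apart from every other library. The authors' deposited table gives a difference of -0.109 against WT Ctr with an FDR listed as 0, on a mean of 1092 and 1773 junction reads per library in WT Ctr and P635L Ctr. For P635L Tnpo3 against WT Ctr it gives -0.02 with an FDR of 0.0223. In WT Tnpo3 inclusion was 95.3% to 97.0%.

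The 48-base exon 20 of Trdn, at chr10:33219072-33219119 (GRCm39), moved the same way. Inclusion was 75.7%, 71.8%, 78.7% and 77.4% in WT Ctr, 62.6%, 62.9%, 64.9% and 61.5% in P635L Ctr, and 74.3%, 76.5%, 76.6% and 71.2% in P635L Tnpo3. The P635L Ctr libraries again lay below all others, and P635L Tnpo3 overlapped WT Ctr. WT Tnpo3 ranged from 75.2% to 79.4%. The authors' deposited table gives -0.129 for P635L Ctr (FDR 1.15e-10) and -0.013 for P635L Tnpo3 (FDR 1.0).

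The 42-base exon of Asph, at chr4:9624360-9624401 (GRCm39), sits between exons of 69 and 96 bases. Inclusion was 91.4%, 84.7%, 91.1% and 68.9% in WT Ctr, 76.3%, 73.7%, 73.9% and 62.5% in P635L Ctr, and 91.0%, 86.0%, 94.0% and 87.1% in P635L Tnpo3. The WT Ctr libraries spread widely and overlapped P635L Ctr, while the mutant groups did not overlap. WT Tnpo3 ranged from 73.9% to 91.7%. The authors' deposited table gives -0.124 for P635L Ctr against WT Ctr (FDR 0.00171).

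The 75-base exon of Asph, at chr4:9607797-9607871 (GRCm39), follows the 96-base exon and overlapped between P635L Ctr and WT Ctr. Inclusion was 83.6%, 66.3%, 85.3% and 87.0% in WT Ctr and 85.4%, 72.4%, 90.8% and 78.2% in P635L Ctr. In P635L Tnpo3 it was 96.2%, 96.4%, 93.2% and 100%, above every library of the other groups. WT Tnpo3 ranged from 76.4% to 90.7%. The authors' deposited table gives 0.159 for P635L Tnpo3 against WT Ctr (FDR 9.75e-05) and 0.011 for P635L Ctr (FDR 1.0). The counts behind this exon were small, 35 to 168 junction reads per library.

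The remaining called exons, the 27-base exon 26 and the 30-base exon 25 of Trdn, were included more often in P635L Ctr. Both are measured against the same skipping junction, between exons of 51 and 48 bases, so they share their skipping reads. Mean inclusion of the 27-base exon was 77.3% ± 12.8 in WT Ctr and 90.6% ± 7.28 in P635L Ctr (SD, n = 4 each). For the 30-base exon it was 78.7% ± 11.6 and 91.2% ± 6.55. The groups overlapped in both cases, with 46 to 194 junction reads per library, and the authors' deposited table gives FDRs of 0.0401 and 0.0352.

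**Figure D3:**
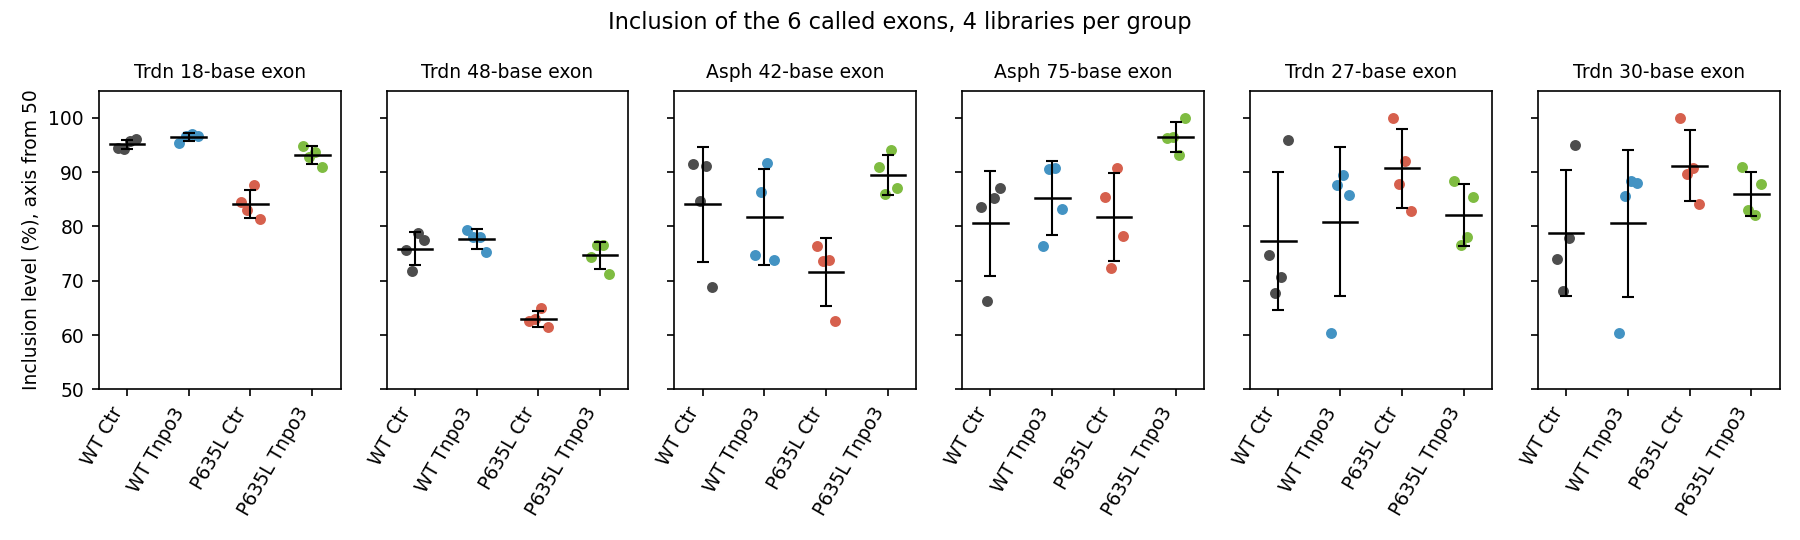
Inclusion level in percent of the 6 exons called in any comparison with WT Ctr; each point is 1 library by listed position, lines are means and bars are SD over 4 libraries, and the axis starts at 50%. The 18-base and 48-base Trdn exons are lowest in all 4 P635L Ctr libraries, and the 75-base Asph exon is highest in P635L Tnpo3.

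The mutant groups were also set against each other over the 8 exons with values in both. Inclusion in P635L Tnpo3 was higher by 0.089 for the 18-base and by 0.117 for the 48-base Trdn exon. It was higher by 0.179 for the 42-base and 0.148 for the 75-base Asph exon. The groups did not overlap for these 4, and the share of all events without overlap was not counted. The exact two-sided permutation p was 0.0286 for each, the smallest that 4 against 4 libraries allow. After adjustment over the 8 exons it was 0.0571, so none passed. The 8 include the 63-base Trdn and 69-base Hrc exons, at 99.9% to 100% on average in both groups, with almost no room to differ. The adjusted p depends on whether they are counted, so no conclusion is drawn from its side of the threshold. The 27-base and 30-base Trdn exons differed by -0.086 and -0.052 (exact p = 0.143 and 0.229). The other called exons were chosen for their difference from WT Ctr in these same P635L Ctr libraries, which favours a difference in the other direction here. The 75-base Asph exon was instead called for its difference between P635L Tnpo3 and WT Ctr. Its P635L Tnpo3 libraries are used again here, which favours the higher inclusion found, so its p adds no support.

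The deepest event of each gene, by junction reads, showed almost no skipping. The deepest Trdn event, the 63-base exon 6, was at 100% in all 16 libraries on 4189 to 10040 junction reads. The deepest Hrc event, its 69-base exon 3, was at 99.9% or more on average in each group. The deepest Asph event, the 42-base exon before a 1318-base last exon, was at 100% in WT Ctr and 99.9% to 100% in P635L Tnpo3. That event has values for these groups alone and none for P635L Ctr. It holds the same 42-base exon as the called Asph event, which has a 96-base exon next. The called difference thus concerns transcripts that run on to the 96-base exon, with a mean of 384 junction reads per WT Ctr library against 862 here.

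Triadin has a short form that is the main one in the heart and longer forms that are prominent in skeletal muscle. In GENCODE M21, Trdn-202 ends in a longer form of exon 9 and Trdn-201 has 38 exons. Junction reads that include an exon were therefore compared along Trdn-201, relative to exon 6, at 16 exons with an event between adjacent exons. This comparison was added after the data had been seen and has no test.

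At exon 14 the ratio was 0.247 ± 0.0423 in WT Ctr, 0.274 ± 0.0484 in WT Tnpo3, 0.405 ± 0.0244 in P635L Ctr and 0.331 ± 0.0292 in P635L Tnpo3 (SD, n = 4 each). The libraries of P635L Ctr lay above those of WT Ctr at 14 of 14 exons after exon 8. The libraries of P635L Tnpo3 did so at 5 of the 14 and those of WT Tnpo3 at 0. The means were higher than those of WT Ctr at 13 of 14 in P635L Tnpo3 and at 14 of 14 in WT Tnpo3. At exon 4, before exon 8, the ratio was 0.407 ± 0.0331 in WT Ctr and 0.402 ± 0.0137 in P635L Ctr. It was 0.382 ± 0.0433 in WT Tnpo3 and 0.366 ± 0.0082 in P635L Tnpo3. The P635L Tnpo3 libraries lay below all those of WT Ctr and P635L Ctr there, so their lower ratios were not confined to exons after exon 8. Exons after exon 8 share transcripts, so their agreement is not repeated evidence.

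Summed over a group's libraries, exon 6 had 178 inclusion reads on the CPM scale in WT Ctr, 97.7 in P635L Ctr and 173.5 in P635L Tnpo3. Exon 14 had 43.8, 39.5 and 57.6. Exon 20, which was also skipped more often in P635L Ctr, had 29.2, 20.3 and 37.2. All 3 exons had fewer reads on this scale in P635L Ctr than in WT Ctr, and the proportional drop was largest at exon 6.

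**Figure D4:**
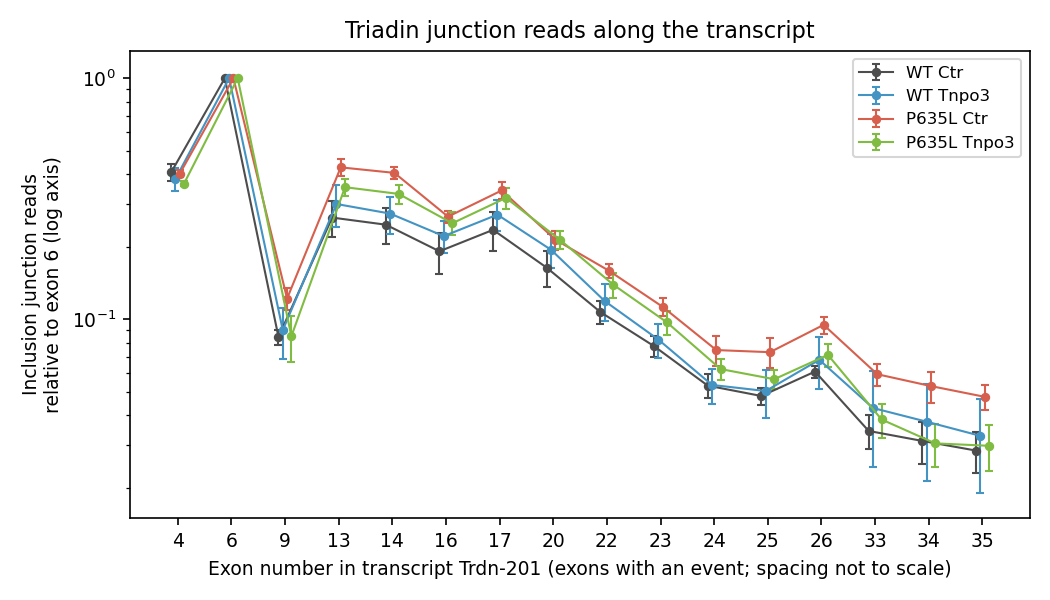
Inclusion junction reads of Trdn exons relative to exon 6 (logarithmic axis) by exon number in Trdn-201; points are means and bars are SD over 4 libraries per group, and exon spacing is not to scale. P635L Ctr lies above WT Ctr at every exon plotted after exon 8 and at the same level at exon 4.

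Partners of these proteins at the release site were counted from a list of 16 genes, all of them tested. In P635L Ctr against WT Ctr 3 were called higher and 3 lower, where 7.07% of all genes were called higher and 7.14% lower. Their median log2 fold change was -0.46, against -0.05 over all genes. Tmem38a, a cation channel of the store membrane, fell from 568.5 ± 90.1 to 304 ± 29.6 CPM (log2 fold change -0.90, edgeR adjusted p = 0.000273). Sarcalumenin (Srl) fell from 931 ± 184 to 593 ± 37 CPM (-0.65, edgeR adjusted p = 0.0168), and the junctophilin Jph1, a tether between membranes, fell from 11.4 ± 2.7 to 7.37 ± 1.17 CPM (-0.62, edgeR adjusted p = 0.0277).

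The 3 genes called higher were Ryr1, Jph4 and Tmem109. Ryr1, the skeletal release channel, rose from 0.57 ± 0.326 to 2.9 ± 1.08 CPM (edgeR adjusted p = 0.00331), far below the cardiac channel Ryr2 at 835.5 ± 269 CPM in WT Ctr and 591 ± 112 in P635L Ctr (edgeR adjusted p = 0.142). Jph4 stayed under 1 CPM on average in every group, and Tmem109 rose by 0.42 on the log2 scale (edgeR adjusted p = 0.0311). In P635L Tnpo3 against P635L Ctr the lowest edgeR adjusted p among the 16 was 0.128, for Sypl2, and their median log2 fold change was -0.06.

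Of 7 genes for calcium uptake into the store, 5 were tested, with a median log2 fold change of -0.21 in P635L Ctr against WT Ctr, and the lowest adjusted p was that of the pump Atp2a2. It stood at 5482 ± 867 CPM in WT Ctr against 3430 ± 543 in P635L Ctr (log2 fold change -0.68, edgeR adjusted p = 0.0607), and its inhibitor Pln at 1176 ± 49 and 1018 ± 125 CPM. Of 8 genes of store-operated entry, the channel Orai1 alone was called, with a log2 fold change of -0.39 in P635L Ctr against WT Ctr (edgeR adjusted p = 0.0337). With 14.2% of all genes called there, 1 of 8 is no result about the list.

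Of 15 other lumenal calcium-binding proteins, 5 were called lower and 3 higher in P635L Ctr against WT Ctr, where 7.14% of all genes were called lower and 7.07% higher. Their median log2 fold change was -0.13. The lower ones were chaperones and a disulfide isomerase: Hspa5 (-0.82), Calr (-0.70), Hsp90b1 (-0.56), Pdia6 (-0.51) and Canx (-0.48). The higher ones, Rcn3 (0.72), Rcn1 (0.43) and Sdf4 (0.32), are EF-hand proteins of the secretory pathway. Rcn1 was called lower in P635L Tnpo3 against P635L Ctr (-0.45, edgeR adjusted p = 0.0486), 1 of the 15, where 3.88% of all genes were called.

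Markers of some other cells moved with genotype, and their part in the values above was not tested. Counts of called markers stand beside 7.07% of all genes called higher and 7.14% called lower in P635L Ctr against WT Ctr, and 1.63% and 2.25% in P635L Tnpo3 against P635L Ctr. Of 15 skeletal muscle markers 10 were tested, and in P635L Ctr 4 were called higher (Mybpc2, Tnnt3, Tnni2 and Mylk2) and Cacna1s lower. Their summed level was 34.3 to 45.7 CPM in WT Ctr, 29.3 to 36.4 in WT Tnpo3, 257 to 378 in P635L Ctr and 63.8 to 188 in P635L Tnpo3. Mybpc2 made up most of it, at 288 ± 47.2 CPM in P635L Ctr. The skeletal myosins Myh1, Myh2 and Myh4 and the skeletal troponin Tnnc2 were each below 0.1 CPM on average in every group.

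All 6 fibroblast markers were called higher in P635L Ctr than in WT Ctr, and 5 of 6 lower in P635L Tnpo3 than in P635L Ctr. Their sum was 749 to 1126 CPM in WT Ctr, 1269 to 1901 in P635L Ctr and 843 to 1176 in P635L Tnpo3. Of 8 ventricular myocyte markers 4 were called lower in P635L Ctr (Myh6, Myl2, Myl3 and Tnni3), with sums of 76810 to 94000 CPM in WT Ctr, 54400 to 58500 in P635L Ctr and 59330 to 69350 in P635L Tnpo3. Myl3 was called higher in P635L Tnpo3 than in P635L Ctr (log2 fold change 0.97, edgeR adjusted p = 0.000838), as Trdn was. Of 6 macrophage markers, Cd68 was called lower in P635L Ctr than in WT Ctr (-0.88, edgeR adjusted p = 0.0476). The median log2 fold change of the 6 was -0.70 there and 0.75 in P635L Tnpo3 against P635L Ctr, the directions of Trdn and Hrc. Their sum was 310 to 1048 CPM in WT Ctr, 275 to 410 in P635L Ctr and 446 to 778 in P635L Tnpo3. The lymphocyte markers summed to 2.93 to 37.3 CPM in WT Ctr and 5.13 to 8.71 in P635L Ctr, and 0 of 6 were called between these groups. The 6 endothelial markers summed to 952.5 to 1112 CPM in WT Ctr and 864.5 to 1004 CPM in P635L Ctr, and 0 were called between these groups. Of 3 atrial markers tested, Nppa and Dkk3 were called higher in P635L Ctr. The sum of the list was 155 to 413 CPM in WT Ctr, 5147 to 9820 in P635L Ctr and 922 to 4521 in P635L Tnpo3. Nppa made up most of it, at 7540 ± 1955 CPM in P635L Ctr. The means of Myl7, Bmp10 and Sln, which were not tested, were lower in P635L Ctr than in WT Ctr.

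The genes whose pattern over the 16 libraries was most like that of Casq1 were Mgat5b, Gm9951, Nppa, Gm11627 and Ltbp2. Their root mean square difference from the centred log2 CPM of Casq1 was 0.64 to 0.76, where the SD of Casq1 itself was 2.17. Nppa, the atrial natriuretic peptide, is also in the atrial list above. Casq2 was most like Cap2 and Grsf1 (0.12 each, SD 0.40), Trdn most like Atp2b1 and Clcn4 (0.14 and 0.15, SD 0.30), Asph most like Eepd1 and Afg3l2 (0.09 and 0.10, SD 0.24), and Hrc most like Isoc2a and Etfb (0.11 and 0.20, SD 0.45). These are descriptions of likeness in 16 libraries that share groups.

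Neither gene beside Casq1 was called higher in P635L Ctr. Pea15a stood at 129 ± 16.1 CPM in WT Ctr against 135 ± 6.41 CPM in P635L Ctr (edgeR adjusted p = 0.725). Atp1a4, upstream on the same strand, fell from 1.77 ± 1.18 to 0.108 ± 0.0759 CPM (log2 fold change -4.12, SE 0.65, edgeR adjusted p = 0.000272). Gm17224 overlaps Casq1 on the other strand and reached 0.781 ± 0.417 CPM in P635L Ctr, and the strand setting of the counting is not stated. D830005E20Rik, which overlaps Trdn on the other strand, stood at 20.2 ± 14 CPM in WT Ctr against 11.3 ± 5.94 CPM in P635L Ctr (edgeR adjusted p = 0.377). Without the strand setting, reads of overlapping genes cannot be told apart. Beside Asph, Chd7 was called lower in P635L Ctr (log2 fold change -0.83, edgeR adjusted p = 0.0297) and Gdf6 higher (2.75, edgeR adjusted p = 0.000561). In that contrast with WT Ctr 14.2% of all genes were called. Clvs1, which overlaps Asph, was not called (edgeR adjusted p = 0.233). Neither were Vangl1 beside Casq2, Nkain2 beside Trdn, nor Trpm4 and Ppfia3 beside Hrc.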

How the data were processed

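Poly(A)-selected, directional RNA libraries of 16 left ventricles were used. The authors deposited raw counts per gene; the submitters' processing notes name STAR 2.7.9a, featureCounts 2.0.6, DESeq2 and GRCm39, and the annotation release and strand setting are not given in the sources used here. The authors' deposited tables of differential expression give log2 fold changes, p-values and adjusted p-values for each group against WT Ctr, and a base mean, a signal per gene averaged over libraries. The authors' deposited splicing tables give rMATS junction reads, inclusion levels, p-values and FDR for the same comparisons, per the file headers. Their differences are WT Ctr minus the other group and were turned round here. A table of P635L Tnpo3 against P635L Ctr was not used here.

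The test of counts was that of edgeR 4.0.16 under R 4.3.3 (robust quasi-likelihood F test, TMM, filterByExpr, a mean per group, 12 residual degrees of freedom, two-sided). Benjamini-Hochberg adjustment ran over all 18662 genes tested, and genes were called at an adjusted p under 0.05; DESeq2 1.42.0 was an alternative. The test was checked on simulated data. Library totals ran from 28493249 to 85922669. The labels number mice 1 to 4 in each group; deviations of same-numbered libraries correlated at -0.257 to 0.552, not above 0.1 in every pair, so the numbers were not used as pairs. Exons were matched to GENCODE M21 (GRCm38) by length and spacing; coordinates marked GRCm39 are the files' own.

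The 5 genes, the lists and the markers were chosen with earlier results of these data known. A planned test of the Casq1 to Casq2 ratio between the WT groups is left out, since the choice of genes knew the WT Ctr values of Casq1. The Trdn junction profile was added after the data had been seen. Named are the 5 genes in each comparison, list genes that were called or stand highest, and the nearest protein-coding neighbours that were tested. Of the overlapping genes, Gm17224, D830005E20Rik and Clvs1 are named. Also named are the genes most alike (5 for Casq1, 2 for the others), and every called event with the deepest event of each gene. Alternatives changed the scaling, the filter, the test, the libraries and the thresholds. Those with a stricter adjusted p or a minimum log2 fold change reuse the main fit and its p-values.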

Additional observations from a re-analysis of the deposited data

Results flagged for a closer look

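The effect of the Tnpo3 virus on Casq1 was set against genotype: the interaction was -2.10 on the log2 scale (SE 0.30). Casq1 was lower in 4 of 4 P635L Tnpo3 libraries than in any P635L Ctr library, and the WT groups overlapped. Casq1 was chosen with its mutant levels known, so this is given as a description.

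Single libraries stood apart from the other 3 of their group in inclusion level, at a cutoff that chance passes in about 1 of 20 groups. They were 0.663 for the 75-base Asph exon in WT Ctr, and 0.604 and 0.603 for the 27-base and 30-base Trdn exons in WT Tnpo3. Both Trdn values come from listed position 1 and share 30 skipping reads. The 85-base Casq1 exon stood at 0.995 in 1 P635L Tnpo3 library, with the others at 1.0. The 101-base Casq2 exon stood at 0.999 in 1 P635L Tnpo3 library. The 69-base Hrc exon stood at 0.999 in 1 P635L Tnpo3 library and at 1.0 in 1 library each of WT Ctr and WT Tnpo3, differences of the last digit the tables give.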

How the results depend on the processing

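Over the 28 alternatives run for each contrast between groups, the calls of Trdn and Hrc in P635L Ctr against WT Ctr kept direction and adjusted p under 0.05; Trdn there missed a minimum log2 fold change of 1. DESeq2 called 4 of the 5 genes in P635L Tnpo3 against P635L Ctr (3.68% of its 37012 genes, which include genes with few counts). It called 2 in P635L Tnpo3 against WT Ctr (3.01%) and 2, Casq1 and Trdn, in the interaction (1.11%). Casq1 is part of each count of called members in this section, and nothing is read from its calls. A fit of only the groups compared called 4 in P635L Tnpo3 against P635L Ctr (15.9% of all genes). In the main fit of that contrast an adjusted p under 0.01 left 1 (1.09%), as did a log2 fold change of at least 1 (1.36%). Without the 3 libraries rich in ENSMUSG00000119584, 3 genes were called in P635L Tnpo3 against WT Tnpo3 (9.66%) and 2 in the interaction (1.65%). Leaving out single libraries gave 1 to 3 called genes in P635L Tnpo3 against P635L Ctr and 1 to 2 in P635L Tnpo3 against WT Ctr. The cause was not tested. With a replicate block, 3 genes were called in P635L Ctr against WT Ctr (13.3% of all genes). In P635L Tnpo3 against P635L Ctr 3 were called (3.63%), where Casq2 passed (-0.74, edgeR adjusted p = 0.0297). Same-numbered libraries correlated at -0.257 to 0.552 in their deviations, and 7 of 16 libraries correlated best with their own number.

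Of all genes, 724 (3.88% of 18662) were called in P635L Tnpo3 against P635L Ctr. DESeq2, which took in 37012 genes without the low-count filter, called 1363 there (3.68%). All DESeq2 shares given here are of those 37012 genes and the main edgeR shares of 18662. The 2 sets of shares are therefore not on the same scale. A fit of only those groups called 2846 (15.9% of 17930), and the fit without the 3 rich libraries 1482 (7.59% of 19532). In P635L Tnpo3 against WT Ctr DESeq2 called 1113 (3.01%) and edgeR 573 (3.07%). In P635L Tnpo3 against WT Tnpo3 DESeq2 called 1439 (3.89%) and edgeR 694 (3.72%). In the interaction DESeq2 called 412 (1.11%) and edgeR 94 (0.504%), or 146 without a filter (0.394%). An adjusted p under 0.01 left 1354 of 2653 for P635L Ctr against WT Ctr. Of the 8 fits that left out a mutant library, 6 called 282 to 395 genes in P635L Tnpo3 against P635L Ctr.

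Directions turned where differences were small. For Asph in P635L Tnpo3 against P635L Ctr the log2 fold change was 0.014 with upper-quartile scaling and 0.00060 with a filter of 1 CPM in 4 libraries, and -0.061 to 0.050 leaving out single libraries. For Trdn in WT Tnpo3 against WT Ctr it was 0.0090 without a filter, 0.00116 with 1 CPM in 4 libraries, 0.012 without ENSMUSG00000119584, 0.023 without the 3 rich libraries, 0.021 without libraries with high Xist, and -0.081 to 0.085 leaving out single libraries. Trdn in P635L Tnpo3 against WT Ctr gave 0.013 without the 3 rich libraries and -0.12 to 0.0024 leaving out single ones. Without the 3 rich libraries Asph gave 0.080 in WT Tnpo3 against WT Ctr and -0.10 in the interaction; leaving out single libraries gave -0.14 to 0.060 and -0.077 to 0.13, and -0.088 to 0.27 for Casq2 between the WT groups. Without division by length the Casq1 to Casq2 ratio was 0.015 in WT Ctr, 0.01716 in WT Tnpo3, 0.36 in P635L Ctr and 0.165 in P635L Tnpo3, as gene lengths differ. A minimum inclusion difference of 0.2 left 0 called events in P635L Ctr and 0 in P635L Tnpo3, and an FDR under 0.01 left 3 in P635L Ctr. The Trdn ratio of exon 14 to exon 6, 1.64-fold higher in P635L Ctr than in WT Ctr, was 1.46-fold at exon 17.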
